A study of Mus musculus with 48 samples.

Results

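The vessels that cross the liver lobule are lined by sinusoidal endothelial cells, and 10 genes that mark these cells were followed across mouse liver treated with antisense oligonucleotides. The genes were Kdr, Stab2, Oit3, Dnase1l3, Lyve1, Pecam1, Cdh5, Clec4g, Eng and Tek, taken by symbol from a table of 23930 genes, and all 10 were among the 12672 genes abundant enough to test. Livers had received PBS or 1 of 3 gapmers against Scarb1, and were taken at 24, 72 and 168 h, which are days 1, 3 and 7 after the first administration. The gapmers are named LX-A1656, LX-A2003, LX-A3928, and values listed for all 3 follow this order. Gapmers are antisense strands with modified ends and a DNA core that recruits RNase H to the paired transcript. With 4 replicates in each of 12 groups there were 48 libraries. The sources used here give no strain, sex, age, dose, oligonucleotide sequence or batch. Nothing in the labels says that replicates were separate animals, so p-values measure only how these samples spread, possibly for technical reasons.

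Liver sinusoidal endothelium is fenestrated, lacks a continuous basement membrane and clears macromolecules from blood through scavenger and lectin receptors, of which Stab2, Clec4g and Lyve1 are examples. Its identity depends on signals such as VEGF, received by the receptor that Kdr encodes, and when that identity is lost the cells take on features of ordinary capillaries, a process known as capillarization. Pecam1, Cdh5, Eng and Tek are expressed by endothelium in general: an adhesion molecule, a cadherin, a co-receptor for BMP ligands and the receptor for angiopoietins. The same endothelial cells are a known site of oligonucleotide uptake in liver.

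RNA was read with a kit that amplifies a designed fragment of each gene, so a value reports on that fragment, and levels of different genes are not compared here. Library totals ran from 8140065 to 17191129 counts, and a marker gene had between 18 and 3126 counts in a library. Levels are CPM, a gene's share of the library's counts after TMM scaling. The target, Scarb1, stood at 236.2 to 409.7 CPM in the 12 PBS libraries and at 3.36 to 56.8 CPM in the 36 oligonucleotide libraries. Replicates were compared over all genes by the chi-square per degree of freedom of their counts. In 6 of the 12 groups, 1 library stood apart: its lowest value against a fellow was at least 1.5 times the highest among the other 3. These were LX-A1656 replicate 1 (51.9 to 72.6 against 12.3 to 22.0 among the others), LX-A2003 replicate 1 (21.0 to 25.5 against 6.74 to 9.13) and LX-A3928 replicate 4 (47.6 to 55.2 against 11.7 to 20.7) at 72 h. At 168 h they were LX-A1656 replicate 4 (43.4 to 48.1 against 10.0 to 25.9), LX-A2003 replicate 4 (35.6 to 83.0 against 12.8 to 21.6) and LX-A3928 replicate 3 (131 to 215 against 14.1 to 82.7). In 3 further groups a library exceeded the others by a ratio of 1.02 to 1.39. The limit of 1.5 was chosen after these values were seen. Leaving out each of the 6 in turn changed 16 calls of markers among the comparisons it enters, and these are given beside the results.

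The markers are described here in sets by time. They were chosen with earlier results of these data known. Early falls beside markers that held, and counts of markers above the shares of all genes, are therefore descriptions of the choice. Kdr and Stab2 were lower with every oligonucleotide at 24 h and at each later time, Oit3 and Dnase1l3 were lower with every oligonucleotide from 72 h, and Clec4g was lower with all 3 at 168 h. Pecam1, Cdh5 and Lyve1 were called lower at no time and were higher at 168 h with all 3, and Eng passed the test in none of the 9 comparisons with PBS. RefSeq promoter sequences were at hand for 5 of the 10 genes, and 4 are shown to set early and later genes side by side: Kdr and Stab2, which fell by 24 h, Clec4g, which fell later, and Eng, which was not called. They are the bases ahead of the annotated start in GRCm38.p6, read 5′ to 3′ on the gene's strand. The windows are chr5:75978459-75978705 (minus strand) for Kdr, chr10:87008026-87008192 (minus) for Stab2, chr8:3720652-3720901 (minus) for Clec4g and chr2:32646345-32646594 (plus) for Eng. Capitals mark GGAA, or TTCC on the other strand, the core letters bound by ETS factors, a family with many endothelial members.
Kdr: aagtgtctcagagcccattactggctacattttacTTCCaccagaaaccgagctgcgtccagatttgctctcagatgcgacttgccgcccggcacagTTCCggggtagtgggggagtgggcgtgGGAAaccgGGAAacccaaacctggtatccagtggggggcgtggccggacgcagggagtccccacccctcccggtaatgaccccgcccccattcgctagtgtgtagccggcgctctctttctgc
Stab2: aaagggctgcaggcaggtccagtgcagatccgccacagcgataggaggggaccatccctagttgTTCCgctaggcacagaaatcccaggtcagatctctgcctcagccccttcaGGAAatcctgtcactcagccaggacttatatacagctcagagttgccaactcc
Clec4g: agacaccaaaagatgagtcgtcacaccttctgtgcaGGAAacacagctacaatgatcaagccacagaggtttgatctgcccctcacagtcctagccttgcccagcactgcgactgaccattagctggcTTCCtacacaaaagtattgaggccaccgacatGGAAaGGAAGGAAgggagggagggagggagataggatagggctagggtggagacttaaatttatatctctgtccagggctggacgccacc
Eng: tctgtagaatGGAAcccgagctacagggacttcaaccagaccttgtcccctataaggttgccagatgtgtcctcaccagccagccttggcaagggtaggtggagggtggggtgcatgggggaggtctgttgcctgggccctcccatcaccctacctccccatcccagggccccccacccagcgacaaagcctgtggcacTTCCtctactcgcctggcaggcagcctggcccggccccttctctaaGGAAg
On either strand, and counting overlaps, GGAA occurred 4 times ahead of Kdr, 2 times ahead of Stab2, 5 times ahead of Clec4g and 3 times ahead of Eng. Of 32851 RefSeq promoter windows cut to the same length, 93.2%, 84.7%, 93.4% and 93.4% held it, so its presence sets none of the 4 genes apart. The letters GATA, the core bound by GATA factors such as the sinusoidal regulator Gata4, occurred 1 time ahead of Kdr, 1 time ahead of Stab2 and 3 times ahead of Clec4g. GATA was not found in the Eng window, and 53.3%, 43.9%, 53.6% and 53.6% of windows of those lengths held it. These are matches of letters and not binding sites.

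A gene is said to rise or fall where the edgeR quasi-likelihood test gave an adjusted p (Benjamini-Hochberg over all genes tested) under 0.05, and changes are log2 fold changes ± SE. At 24 h, 3 of 10 markers fell with LX-A1656, where 2.86% of all genes tested were called, 2 with LX-A2003 (2.09% called) and 2 under LX-A3928 (3.26% called). Lower calls made up 1.88%, 1.15% and 1.58% of all genes. At 72 h, 6 fell with LX-A1656, 4 with LX-A2003 and 4 under LX-A3928, beside 48.2%, 12% and 9.8% of all genes called and 23.4%, 6.55% and 5.33% called as lower. By 168 h, 9 (6 lower, 3 higher), 9 (6 lower, 3 higher) and 8 (5 lower, 3 higher) were called, beside 63.9%, 55.1% and 48% of all genes, so at that time a call was common in any gene. Of all genes, 29.7%, 25.3% and 20.7% were lower and 34.1%, 29.8% and 27.3% higher. The median change of the 10 markers with LX-A1656 was -0.47 at 24 h, -1.10 at 72 h and -1.17 at 168 h, where the median over all genes was 0.02, 0.05 and 0.10. With LX-A2003 the markers' median was -0.09, -0.50 and -0.80, and with LX-A3928 it was -0.09, -0.40 and -0.35, where all-gene medians lay between 0.01 and 0.08. The 3 comparisons at a time share 4 PBS libraries. In whole liver, fewer endothelial cells and less RNA per cell cannot be told apart.

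**Figure D1:**
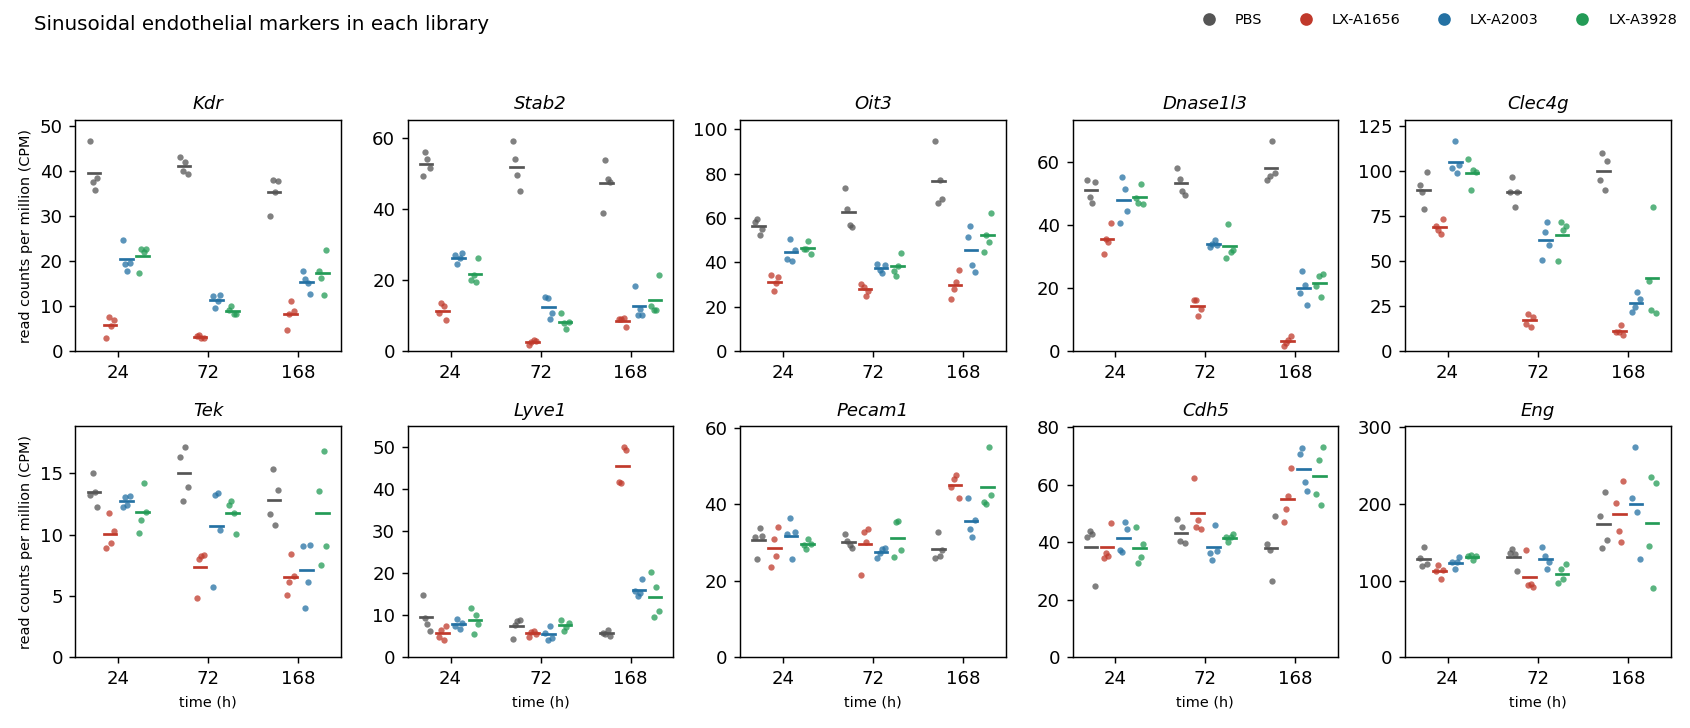
Level of each marker gene (CPM, y axis from 0) in each of the 48 libraries at 24, 72 and 168 h (times evenly spaced); points are libraries, coloured by treatment, and bars are means of 4. Kdr and Stab2 lie below PBS in every oligonucleotide library at every time, and Lyve1 at 168 h lies at 41.5 to 50 CPM with LX-A1656 against 5.08 to 6.60 in PBS.

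Kdr, the main VEGF receptor of endothelium (GRCm38 chromosome 5, 75932827 to 75978458, in GENCODE vM21), fell earliest together with Stab2. At 24 h its levels in replicates 1 to 4 were 46.6, 37.5, 35.8 and 38.3 CPM in PBS and 2.96, 7.57, 5.44 and 6.86 CPM with LX-A1656. They were 24.7, 19.3, 17.7 and 19.6 CPM with LX-A2003 and 17.2, 22.6, 22 and 22.6 CPM under LX-A3928. All 12 oligonucleotide libraries lay below all 4 PBS libraries, and the 4 LX-A1656 libraries lay below the other 8. The changes were -2.78 ± 0.20 with LX-A1656 (adjusted p = 5.64e-14), -0.96 ± 0.18 with LX-A2003 (adjusted p = 0.0011) and -0.91 ± 0.18 under LX-A3928 (adjusted p = 0.00158). Mean levels were thus 14.4%, 51.4% and 53.4% of the PBS mean.

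Kdr was lower still at 72 h. PBS libraries read 43.1, 40, 42 and 39.3 CPM, and LX-A1656 libraries 3.3, 3.55, 2.94 and 2.92 CPM, which is 7.73% of the PBS mean. LX-A2003 gave 12.1, 9.5, 11.2 and 12.3 CPM and LX-A3928 gave 9.17, 10.1, 8.31 and 8.18 CPM. No oligonucleotide library reached the lowest PBS library. Changes were -3.69 ± 0.21, -1.86 ± 0.19 and -2.20 ± 0.19 with the 3 oligonucleotides, in that order (adjusted p = 3.88e-19, 2.73e-10 and 7.5e-12). At 168 h PBS libraries read 30, 37.9, 35.3 and 37.7 CPM. Levels were then 4.75, 8.24, 11.1 and 8.77 CPM with LX-A1656, 17.7, 15.9, 15.1 and 12.7 CPM with LX-A2003 and 17.7, 16.3, 12.4 and 22.4 CPM under LX-A3928. Every oligonucleotide library was still below PBS, with means at 23.3%, 43.5% and 48.9% of the PBS mean. The changes were -2.09 ± 0.19, -1.20 ± 0.19 and -1.03 ± 0.19 (adjusted p = 4.88e-13, 4.82e-07 and 1.06e-05).

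Stab2 encodes stabilin-2, the endocytic receptor for hyaluronan and other blood-borne ligands, and spans 166.8 kb of chromosome 10 (86841198 to 87008025). At 24 h it was at 49.3, 56.1, 54 and 51.6 CPM in PBS and at 10.7, 13.4, 12.7 and 8.73 CPM with LX-A1656. It was at 27.1, 24.4, 26.2 and 27.5 CPM with LX-A2003 and 19.9, 21.5, 19.3 and 26.2 CPM under LX-A3928. As for Kdr, no oligonucleotide library reached the lowest PBS library, and LX-A1656 libraries were lowest. Stab2 changed by -2.21 ± 0.20, -1.0 ± 0.19 and -1.28 ± 0.19 (adjusted p = 8.58e-11, 0.00105 and 1.7e-05), and mean levels were 21.6%, 49.9% and 41.2% of PBS.

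By 72 h Stab2 had the lowest level relative to PBS of the 10 markers with each oligonucleotide. PBS libraries read 59.2, 54.1, 49.6 and 45.1 CPM, and those with LX-A1656 read 1.56, 2.64, 3.02 and 2.84 CPM, a mean 20.7 times below PBS. With LX-A2003 they read 15.3, 14.8, 9.08 and 10.6 CPM, and with LX-A3928 10.6, 7.97, 6.1 and 8.29 CPM. No group overlapped PBS. The changes were -4.36 ± 0.23, -2.07 ± 0.20 and -2.64 ± 0.21 (adjusted p = 2.22e-20, 6.6e-11 and 1.93e-13). Without its replicate 1, the lowest of the 4, LX-A1656 gave -4.19 ± 0.25. At 168 h levels were 39, 53.8, 48.5 and 47.7 CPM in PBS and 9.12, 9.07, 9.4 and 6.68 CPM with LX-A1656. LX-A2003 libraries read 18.2, 10, 11.9 and 10.1 CPM and LX-A3928 libraries 12.8, 11.5, 11.7 and 21.3 CPM. All stayed below PBS, with replicate 1 of LX-A2003 and replicate 4 of LX-A3928 above their fellows. Changes were -2.46 ± 0.20, -1.91 ± 0.20 and -1.72 ± 0.20 (adjusted p = 1.82e-14, 3.58e-11 and 7.6e-10).

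Neither receptor gene passed the test across times in PBS livers. None of the 10 markers passed the test between PBS at 72 h and 24 h, where 0.0789% of all genes were called, or between 168 h and 24 h (1.03% called). At an unadjusted p under 0.05 there were 0 and 3 markers, and DESeq2 called 0 in both. The 3 were Oit3 (0.45 ± 0.14, adjusted p = 0.1 by the edgeR test), Lyve1 (-0.76 ± 0.24, adjusted p = 0.116) and Eng (0.43 ± 0.19, adjusted p = 0.268).

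**Figure D2:**
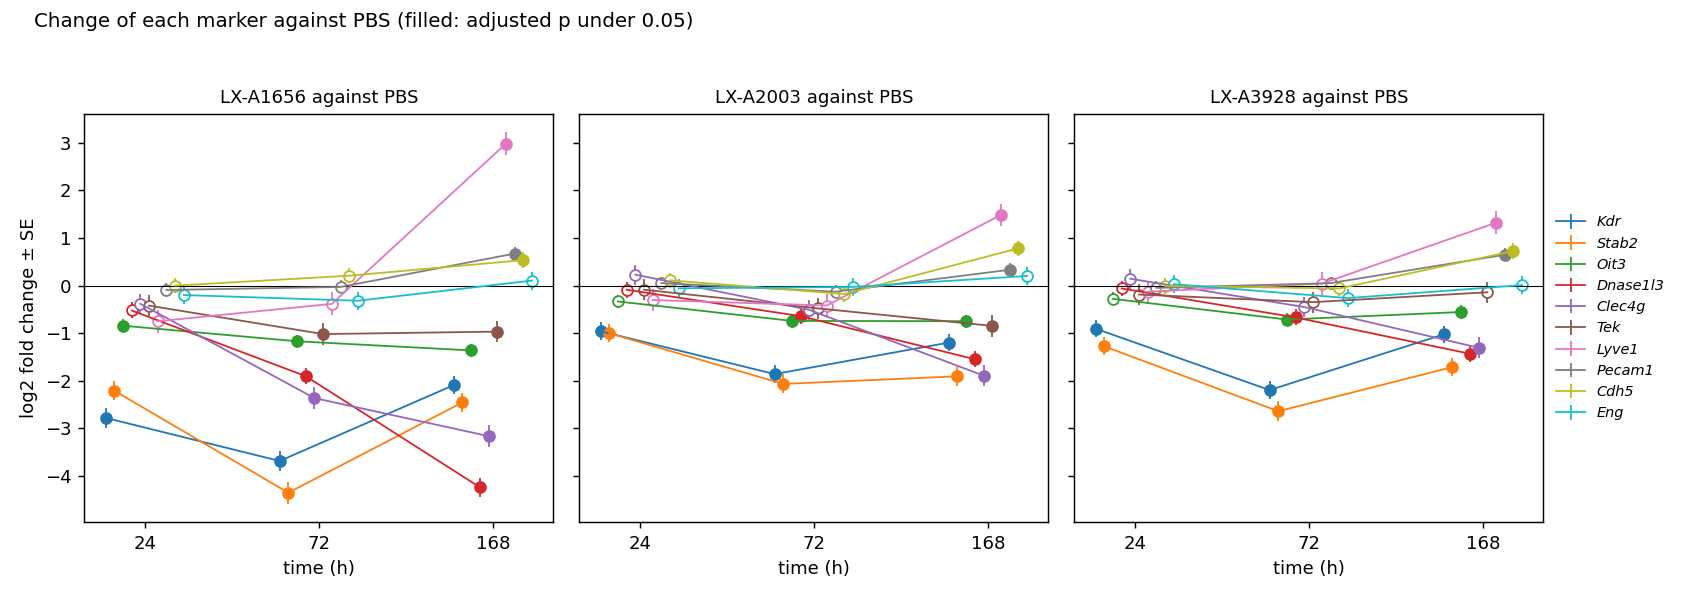
Log2 fold change ± SE of each marker against PBS of the same time (y axis) at 24, 72 and 168 h (x axis, evenly spaced), a panel for each oligonucleotide; filled points passed the test. Kdr and Stab2 are lowest at 72 h with all 3, while Dnase1l3 and Clec4g are lowest at 168 h.

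Oit3, Dnase1l3 and Clec4g are genes enriched in sinusoidal endothelium whose falls were called with all 3 oligonucleotides only at later times than those of Kdr and Stab2. Oit3, a secreted or membrane-linked glycoprotein (chromosome 10, 59422958 to 59441778), was at 58.2, 59.4, 52.2 and 55.3 CPM in PBS at 24 h and at 34.1, 27.1, 30.8 and 33.3 CPM with LX-A1656. The groups did not overlap, and Oit3 changed by -0.84 ± 0.14 (adjusted p = 9.24e-05). With LX-A2003 (40.7 to 50.6 CPM) and LX-A3928 (43.7 to 49.6 CPM) it also lay below the PBS libraries, but the changes of -0.34 ± 0.14 and -0.28 ± 0.14 did not pass the test (adjusted p = 0.26 and 0.34). At 72 h and 168 h Oit3 fell with all 3. The changes were -1.17 ± 0.14, -0.74 ± 0.14 and -0.71 ± 0.14 at 72 h, then -1.36 ± 0.14, -0.75 ± 0.14 and -0.56 ± 0.14 (adjusted p from 1.43e-11 to 0.000822). At 168 h, the call with LX-A3928 was lost when libraries were scaled by their totals alone (adjusted p = 0.116) and when only the libraries compared were fitted (adjusted p = 0.0746).

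Dnase1l3, a secreted DNase that digests DNA in chromatin and vesicles (chromosome 14, 7964533 to 7994573), fell with all 3 oligonucleotides at 72 and 168 h. At 24 h it was at 47 to 54.1 CPM in PBS and 30.8 to 40.4 CPM with LX-A1656, a change of -0.52 ± 0.17 that did not pass the edgeR test (adjusted p = 0.0844) although the groups did not overlap. DESeq2 (adjusted p = 0.0206) and a fit of these libraries alone (adjusted p = 0.00671) called it. At 72 h Dnase1l3 read 57.8, 54.6, 50.5 and 49.2 CPM in PBS and 16.1, 16.1, 11.1 and 13.3 CPM with LX-A1656. It read 32.9, 33.9, 35.3 and 33.6 CPM with LX-A2003 and 29.6, 40.3, 31.3 and 32.1 CPM under LX-A3928. All 3 groups lay below PBS, at -1.91 ± 0.17, -0.64 ± 0.17 and -0.67 ± 0.17 (adjusted p = 1.15e-12, 0.00581 and 0.00505).

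Dnase1l3 was lowest relative to PBS at 168 h. PBS libraries read 54, 55.3, 66.5 and 56.4 CPM, and LX-A1656 libraries 1.56, 2.51, 3.39 and 4.83 CPM, a mean 18.9 times below PBS. LX-A2003 gave 18.2, 25.5, 21 and 14.7 CPM and LX-A3928 gave 20.5, 23.8, 17 and 24.3 CPM, or 34.2% and 36.9% of the PBS mean. No library overlapped PBS, and none of the LX-A1656 libraries reached the lowest with another oligonucleotide. The changes were -4.24 ± 0.20, -1.55 ± 0.17 and -1.43 ± 0.17 (adjusted p = 8.48e-23, 1.91e-10 and 1.91e-09).

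Clec4g, the C-type lectin known as LSECtin (chromosome 8, 3707064 to 3720651), was not called at 24 h, with levels of 79 to 99.7 CPM in PBS and 65 to 73.4, 99.1 to 117 and 89.8 to 107 CPM with the 3 oligonucleotides, in that order. The LX-A1656 libraries were below PBS, but the change of -0.38 ± 0.21 did not pass (adjusted p = 0.498). At 72 h Clec4g read 88.5, 96.6, 80 and 88.6 CPM in PBS and 15.3, 20.6, 13.6 and 19 CPM with LX-A1656, a change of -2.37 ± 0.23 (adjusted p = 4.79e-12). LX-A2003 (50.8 to 71.9 CPM) and LX-A3928 (49.9 to 72.1 CPM) also lay below PBS, at -0.51 ± 0.21 and -0.45 ± 0.21, without passing (adjusted p = 0.12 and 0.199). Fits of the compared libraries alone called both of these (adjusted p = 0.00269 and 0.0352). The Clec4g result at 24 h with LX-A1656 was called in the same kind of fit (adjusted p = 0.0214).

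Clec4g was lower with all 3 at 168 h. It read 95, 110.1, 89.8 and 106 CPM in PBS, 10.3, 10.6, 14.5 and 9.09 CPM with LX-A1656 and 21.7, 24.4, 32.6 and 29.1 CPM with LX-A2003. LX-A3928 libraries read 39, 23, 80.2 and 21 CPM, where replicate 3, which stood apart, was the highest. The changes were -3.17 ± 0.23, -1.90 ± 0.22 and -1.31 ± 0.22 (adjusted p = 6.05e-16, 8.35e-10 and 2.67e-06). Without replicate 3, LX-A3928 gave -1.86 ± 0.17 (adjusted p = 3.4e-12). That library also had the highest summed level of the 10 hepatocyte markers in its group, 97055 CPM where the other 3 had 34625 to 48750, and the part of this in its Clec4g value was not tested.

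Lyve1, a hyaluronan receptor of sinusoidal and lymphatic endothelium that some macrophages also carry (chromosome 7, 110850607 to 110863239), moved the other way. At 24 h it read 14.9, 9.37, 8.02 and 6.37 CPM in PBS and 4.89, 6.47, 4.25 and 7.38 CPM with LX-A1656. The groups overlapped, and the change of -0.75 ± 0.24 did not pass (adjusted p = 0.0895), though it did without replicate 4 of PBS, the lowest in that group (-0.90 ± 0.25, adjusted p = 0.0418). Changes of Lyve1 lay between -0.42 and 0.04 in the other comparisons at 24 and 72 h, none of them called. At 168 h PBS libraries read 5.91, 5.49, 6.6 and 5.08 CPM. LX-A1656 libraries then read 41.8, 41.5, 50 and 49.5 CPM, 7.92 times the PBS mean. LX-A2003 gave 15.9, 14.6, 15.3 and 18.7 CPM and LX-A3928 20.2, 9.73, 16.7 and 11.1 CPM, or 2.8 and 2.5 times. No oligonucleotide library overlapped PBS. Lyve1 rose by 2.99 ± 0.24, 1.49 ± 0.24 and 1.32 ± 0.24 (adjusted p = 1.2e-14, 9.4e-07 and 1.14e-05). PBS means of Lyve1 were 9.67 ± 3.7, 7.47 ± 2.06 and 5.77 ± 0.648 CPM (SD, n = 4) at 24, 72 and 168 h, so the 168 h group is also the lowest of the PBS groups.

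Pecam1, the platelet and endothelial adhesion molecule CD31 (chromosome 11, 106654217 to 106750628), did not pass the test at 24 or 72 h. Its 95% intervals at 24 h were -0.37 to 0.19 with LX-A1656, -0.23 to 0.33 with LX-A2003 and -0.33 to 0.23 under LX-A3928. At 72 h they were -0.31 to 0.25, -0.41 to 0.15 and -0.23 to 0.33. None of these intervals reaches down to the fitted change of Kdr or Stab2 in the same comparison. The 3 genes were chosen with earlier results known, so this gap describes the choice, and the difference itself was not tested. At 168 h Pecam1 read 26, 32.7, 26.5 and 28.1 CPM in PBS, 44.6, 46.6, 47.8 and 41.7 CPM with LX-A1656, 41.6, 33.6, 31.5 and 35.9 CPM with LX-A2003 and 40.5, 40, 54.9 and 42.4 CPM under LX-A3928. It rose by 0.67 ± 0.14, 0.33 ± 0.14 and 0.65 ± 0.14 (adjusted p = 4e-05, 0.0377 and 0.000127). The LX-A2003 group overlapped PBS, and its call was lost without replicate 1 (adjusted p = 0.156), without replicate 4 (0.0586), without PBS replicate 1 (0.0993), 3 (0.087) or 4 (0.0684), without a filter on low counts (0.117) and in a fit of these libraries alone (0.0804).

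Cdh5, the adherens junction cadherin of endothelium (chromosome 8, 104101625 to 104144511), was likewise called lower at no time. At 24 h it read 41.7, 43.9, 43 and 24.7 CPM in PBS, where replicate 4 was low. The 3 oligonucleotide groups had means of 38.3 ± 5.76, 41.4 ± 5.11 and 38.1 ± 5.49 CPM (SD, n = 4) against 38.3 ± 9.13. Cdh5 changes were 0.00 ± 0.16, 0.11 ± 0.16 and -0.01 ± 0.16 at 24 h and 0.21 ± 0.16, -0.18 ± 0.16 and -0.06 ± 0.16 at 72 h, with adjusted p of at least 0.298. With library totals as the scale, the 72 h change with LX-A1656 passed (0.42 ± 0.17, adjusted p = 0.0386). At 168 h Cdh5 read 39.5, 37.2, 26.7 and 49 CPM in PBS and 47.1, 51.7, 56.1 and 65.9 CPM with LX-A1656. It read 70.8, 72.7, 60.8 and 57.8 CPM with LX-A2003 and 56.8, 68.7, 53.1 and 72.9 CPM under LX-A3928, and these groups lay above PBS while LX-A1656 overlapped it in 1 library. The rises were 0.53 ± 0.16, 0.78 ± 0.16 and 0.72 ± 0.16 (adjusted p = 0.00369, 6.48e-05 and 0.000239).

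Eng, endoglin, the co-receptor for BMP9 and BMP10 (chromosome 2, 32646595 to 32682669), passed the test in none of the 9 comparisons. Its changes ran from -0.32 ± 0.19 (LX-A1656 at 72 h, adjusted p = 0.165) to 0.20 ± 0.19 (LX-A2003 at 168 h, adjusted p = 0.375). In the former group, replicate 1 stood at 139.6 CPM and the others at 92.2 to 95.3, and without it Eng passed at -0.48 ± 0.20 (adjusted p = 0.0458). At 168 h Eng spread widely, at 142 to 216 CPM in PBS and 90.9 to 236 CPM with LX-A3928. Tek, the angiopoietin receptor TIE2 (chromosome 4, 94739289 to 94874976), fell with LX-A1656 at 72 h and with LX-A1656 and LX-A2003 at 168 h. At 72 h it read 16.3, 12.7, 17.1 and 13.9 CPM in PBS and 4.87, 8, 8.25 and 8.36 CPM with LX-A1656, with no overlap and a change of -1.02 ± 0.23 (adjusted p = 0.000223). At 168 h Tek read 11.7, 15.3, 10.8 and 13.6 CPM in PBS, 5.04, 6.15, 8.41 and 6.6 CPM with LX-A1656 and 9.04, 3.99, 6.15 and 9.14 CPM with LX-A2003. These groups lay below PBS, at -0.97 ± 0.23 and -0.85 ± 0.23 (adjusted p = 0.00028 and 0.00162), while LX-A3928 overlapped PBS at -0.14 ± 0.23 (adjusted p = 0.634). The 2 calls of Tek at 168 h were lost when libraries were scaled by totals alone (adjusted p = 0.0514 and 0.11).

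Scaling bore on the 168 h comparisons in particular. Library totals alone, in place of TMM, moved the median change of all genes to 0.56, 0.45 and 0.39 with the 3 oligonucleotides, in that order, at 168 h, and to 0.27 with LX-A1656 at 72 h. Under that scale Eng passed as higher at 168 h with LX-A1656 (0.57 ± 0.19, adjusted p = 0.0079) and LX-A2003 (0.61 ± 0.19, adjusted p = 0.00604), values close to the shift of all genes. No marker changed sign under it among those called with TMM against PBS.

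A level taken relative to Cdh5 in the same library does not depend on how libraries are scaled. On that scale, log2((count + 0.5)/(Cdh5 count + 0.5)) tested with limma over all genes, Kdr and Stab2 were lower than in PBS in all 9 comparisons. Kdr, Stab2 and Cdh5 were chosen with earlier results of these data known, as genes that fell early and a marker that held. These tests therefore describe that choice on another scale and are not independent support for it. At 24 h, Kdr relative to Cdh5 changed by -2.88 ± 0.24, -1.10 ± 0.24 and -0.92 ± 0.24 with the 3 oligonucleotides, in that order (adjusted p = 4.97e-13, 0.00976 and 0.0321). Stab2 changed by -2.25 ± 0.27, -1.14 ± 0.27 and -1.31 ± 0.27 (adjusted p = 1.4e-07, 0.0271 and 0.00387). Of the 9 markers other than Cdh5, 3, 2 and 2 were called at 24 h, beside 1.07%, 0.616% and 1.08% of all genes, the 3 with LX-A1656 including Oit3 (-0.87 ± 0.20, adjusted p = 0.0101).

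The 24 h calls on this scale leaned on single libraries, among them PBS replicate 4, whose Cdh5 was low. Without it, Kdr and Stab2 with LX-A2003 were at -0.92 ± 0.25 and -0.95 ± 0.29 (adjusted p = 0.0809 and 0.149), and Kdr with LX-A3928 at -0.74 ± 0.25 (adjusted p = 0.132). The LX-A2003 calls were also both lost without its replicate 3 or 4. The call of Stab2 there was lost without PBS replicate 2, and that of Kdr with LX-A3928 without PBS replicate 1 or LX-A3928 replicate 1 or 4. Oit3 with LX-A1656 was at -0.68 ± 0.19 without PBS replicate 4 (adjusted p = 0.0685). Stab2 with LX-A3928, and Kdr and Stab2 with LX-A1656, passed in each of these fits.

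At 72 h, 7, 2 and 3 of the 9 were lower relative to Cdh5, beside 39.7%, 8.63% and 4.89% of all genes. Kdr was at -3.88 ± 0.24, -1.68 ± 0.24 and -2.14 ± 0.24, and Stab2 at -4.58 ± 0.27, -1.90 ± 0.27 and -2.61 ± 0.27, with adjusted p of 1.06e-06 or less. By 168 h, 7, 8 and 7 were called (6, 7 and 7 lower and 1, 1 and 0 higher), beside 62.1%, 69.1% and 62.8%. Cdh5 itself was called higher than PBS with all 3 at this time, and a higher Cdh5 lowers every ratio. The median of all genes on this scale had itself moved to -0.45, -0.77 and -0.70. With LX-A3928, Eng (-0.82 ± 0.22, adjusted p = 0.00131) and Tek (-0.93 ± 0.29, adjusted p = 0.00509) were lower relative to Cdh5. Neither was called against PBS there. Lyve1 was higher relative to Cdh5 with LX-A1656 (2.42 ± 0.28, adjusted p = 8.9e-11) and LX-A2003 (0.66 ± 0.28, adjusted p = 0.0304), and not called with LX-A3928 (0.51 ± 0.28, adjusted p = 0.0994). The call of Lyve1 with LX-A2003 was lost in 5 of 8 fits that left out a library (adjusted p = 0.0528 to 0.14), among them that without replicate 4, which stood apart (0.107), and with LX-A3928 Lyve1 passed in 3 of 8 (0.0256 to 0.0409). Eng with LX-A2003 at 168 h (-0.64, adjusted p = 0.00922) was no longer called without that replicate (-0.50 ± 0.23, adjusted p = 0.0542), without PBS replicate 3 (-0.37 ± 0.21, adjusted p = 0.119) or with Pecam1 as the reference gene (-0.16 ± 0.26, adjusted p = 0.62). Pecam1 was called relative to Cdh5 in none of the 9 comparisons. Its values ran from -0.48 to 0.12, the lowest with LX-A2003 at 168 h (adjusted p = 0.0578), which passed without PBS replicate 1 (0.0481) or 4 (0.0216) or LX-A2003 replicate 4 (0.0485). At 72 h, the calls of Eng with LX-A1656 and of Oit3 with LX-A3928 were lost in 8 of 8 and 6 of 8 such fits (adjusted p = 0.0586 to 0.129 and 0.0643 to 0.116).

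**Figure D3:**
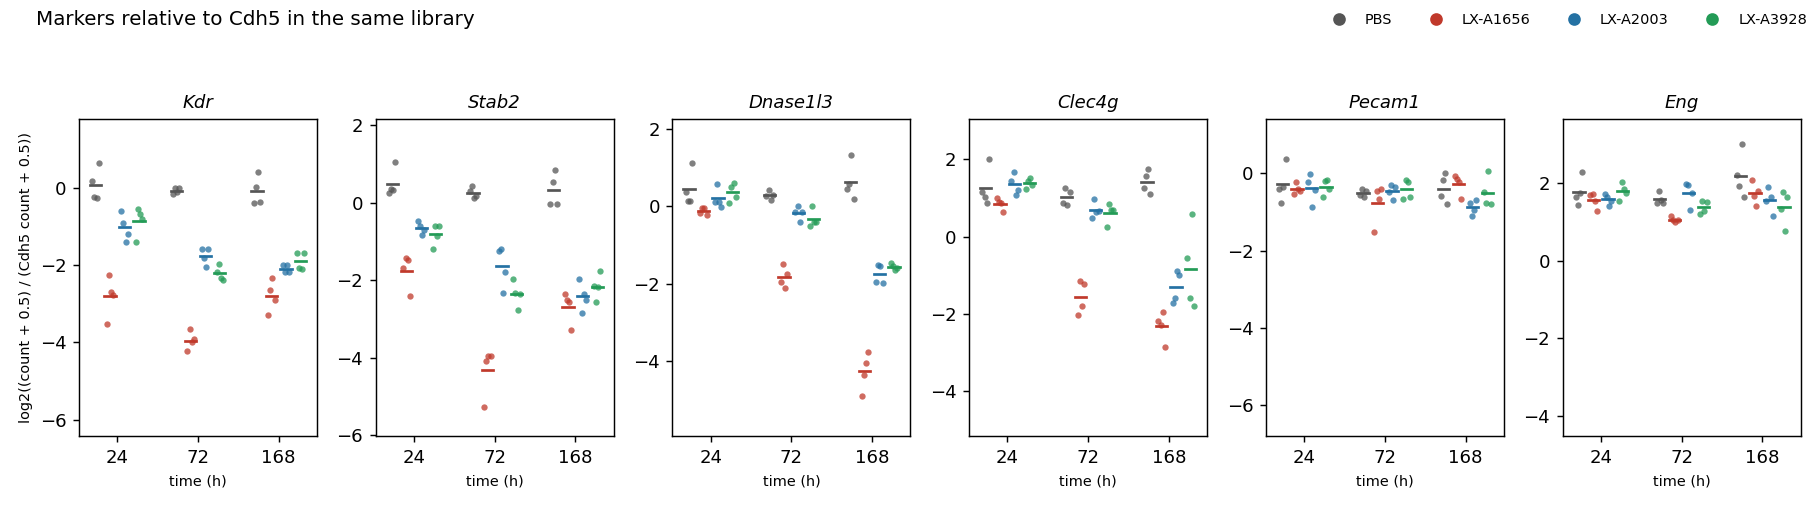
Log2 ratio of 6 markers to Cdh5 in the same library, with 0.5 added to each count (y axis), at 24, 72 and 168 h; points are libraries and bars group means, and each panel covers the same number of log2 units. Kdr and Stab2 lie below PBS at each time, Dnase1l3 and Clec4g mainly from 72 h, and Pecam1 overlaps PBS at each time.

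The oligonucleotides were compared with each other at each time, 9 pairs in all. Doses are not known from the labels, so these are comparisons of the groups as labelled. The mean of Kdr and of Stab2 was lowest with LX-A1656 at every time. At 24 h Kdr was higher by 1.82 ± 0.20 with LX-A2003 and by 1.88 ± 0.20 with LX-A3928 than with LX-A1656 (adjusted p = 1.48e-07 and 1.92e-08). Stab2 was higher by 1.21 ± 0.20 and 0.93 ± 0.20 (adjusted p = 0.000736 and 0.00442). These made up 2 and, with Oit3 (0.56 ± 0.14, adjusted p = 0.0161), 3 of 10 markers called, beside 0.284% and 2.9% of all genes. The Oit3 call was lost without LX-A1656 replicate 2 (0.0821) or 3 (0.0516) or LX-A3928 replicate 3 (0.0655).

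More pair differences were called at 72 h, with 5 of 10 markers called for LX-A2003 and 6 for LX-A3928 against LX-A1656, beside 35.9% and 40.6% of all genes. Clec4g differed by 1.85 ± 0.22 and 1.91 ± 0.22 (adjusted p = 5.42e-09 and 1.87e-09), and Stab2 by 2.29 ± 0.22 and 1.71 ± 0.23 (adjusted p = 2.65e-11 and 3.14e-08). Without LX-A1656 replicate 1, which stood apart, Tek was no longer called with LX-A3928 (0.52 ± 0.24, adjusted p = 0.0887), and without LX-A2003 replicate 1 Tek passed as higher with LX-A2003 (0.74 ± 0.22, adjusted p = 0.00853). The Oit3 call with LX-A2003 was lost without LX-A1656 replicate 3 (0.0539), and Cdh5 passed as lower with LX-A2003 without LX-A1656 replicate 4 (0.0489) or LX-A2003 replicate 3 (0.027). With library totals as the scale, the Oit3 calls at 72 h were lost with LX-A2003 (0.216) and LX-A3928 (0.316), as was the Tek call with LX-A3928 (0.181), while Cdh5 passed as lower with both (0.00384 and 0.007). At 168 h 7 and 7 were called, beside 32.1% and 41.7%. Dnase1l3 was higher than with LX-A1656 by 2.69 ± 0.19 and 2.81 ± 0.19 (adjusted p = 8.9e-15 and 6.25e-16). Lyve1 was lower, at -1.50 ± 0.22 and -1.66 ± 0.22 (adjusted p = 6.88e-07 and 4.83e-08). The higher Stab2 with LX-A2003 at 168 h (0.55 ± 0.20, adjusted p = 0.0298) was lost without its replicate 1, the highest of the group (0.265), or LX-A1656 replicate 4 (0.102), which stood apart, and with library totals (0.0837), and the lower Pecam1 with LX-A2003 (-0.34 ± 0.14, adjusted p = 0.0487) in 6 of 8 such fits (0.0674 to 0.153), among them that without LX-A2003 replicate 4, which stood apart (0.0674).

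LX-A3928 and LX-A2003 differed in no marker at 24 h (0.15% of all genes called) or 72 h (0.718% called) by the edgeR test. At an unadjusted p under 0.05 there were 0 and 1 markers, and DESeq2 called 0 at both times. The 95% intervals of the difference were -0.32 to 0.43 for Kdr and -0.66 to 0.11 for Stab2 at 24 h, and -0.73 to 0.05 and -0.98 to -0.16 at 72 h. At 168 h 1 marker, Tek, was higher with LX-A3928 (0.71 ± 0.23, adjusted p = 0.0435), beside 8.1% of all genes. This call was lost without LX-A3928 replicate 3, which stood apart (0.49 ± 0.23, adjusted p = 0.371). It was also lost without LX-A3928 replicate 1 (adjusted p = 0.121) or LX-A2003 replicate 2 or 3 (0.202 and 0.125), and with library totals as the scale (0.144). Clec4g passed as higher with LX-A3928 without its replicate 2 (0.78 ± 0.21, adjusted p = 0.00995) or 4 (0.80 ± 0.21, adjusted p = 0.00683), both of which leave replicate 3 in.

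How the markers moved between consecutive times was tested as a change of the difference from PBS. From 24 to 72 h, Kdr and Stab2 fell further with each oligonucleotide. With LX-A1656 the steps were -0.91 ± 0.28 for Kdr (adjusted p = 0.0121) and -2.15 ± 0.30 for Stab2 (adjusted p = 1.77e-07). With LX-A2003 they were -0.90 ± 0.26 and -1.07 ± 0.27 (adjusted p = 0.0476 and 0.0203), and with LX-A3928 -1.29 ± 0.26 and -1.37 ± 0.28 (adjusted p = 0.00377 and 0.00349). Dnase1l3 and Clec4g also fell further with LX-A1656, so that 4 of 10 markers were called there and 2 and 2 with the others, beside 30.2%, 2.71% and 1.26% of all genes.

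From 72 to 168 h the markers parted. Kdr and Stab2 came back towards PBS with LX-A1656 (1.60 ± 0.28 and 1.90 ± 0.29, adjusted p = 1.38e-05 and 1.79e-06) and LX-A3928 (1.17 ± 0.26 and 0.93 ± 0.28, adjusted p = 0.000835 and 0.0112). With LX-A2003 the steps of 0.66 ± 0.26 and 0.16 ± 0.27 did not pass (adjusted p = 0.0505 and 0.712). Dnase1l3 and Clec4g fell further with all 3 in the same interval, Dnase1l3 with steps of -2.34 ± 0.25, -0.91 ± 0.24 and -0.76 ± 0.24 (adjusted p = 7.02e-10, 0.00282 and 0.0154). Clec4g steps were -0.80 ± 0.31, -1.38 ± 0.30 and -0.85 ± 0.30 (adjusted p = 0.0454, 0.000436 and 0.0351). With library totals alone, the further fall of Dnase1l3 from 72 to 168 h was no longer called with LX-A2003 (-0.48 ± 0.24, adjusted p = 0.109) or LX-A3928 (-0.36 ± 0.24, adjusted p = 0.257), and that of Clec4g was no longer called with LX-A1656 (-0.54 ± 0.29, adjusted p = 0.159) or LX-A3928 (-0.55 ± 0.28, adjusted p = 0.143). The Dnase1l3 step with LX-A1656 and the Clec4g step with LX-A2003 passed on that scale too. Lyve1 rose in this interval with all 3. In all 6, 4 and 7 of 10 markers were called, beside 30.1%, 29.7% and 23% of all genes.

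Other steps also changed their call with the scaling or the fit. With library totals, the 24 to 72 h steps of Kdr with LX-A1656 (adjusted p = 0.0904) and LX-A2003 (0.103) and of Stab2 with LX-A2003 (0.0517) were lost, and the return of Kdr with LX-A2003 passed (1.08 ± 0.28, adjusted p = 0.00246). On that scale Pecam1 rose from 72 to 168 h with LX-A2003 (0.89 ± 0.21, adjusted p = 0.000811), as did Oit3 (0.56 ± 0.18, adjusted p = 0.0154) and Eng (0.71 ± 0.27, adjusted p = 0.0443) with LX-A3928. DESeq2 size factors ended the calls of the Clec4g step with LX-A1656 (adjusted p = 0.0517) and the 24 to 72 h Kdr step with LX-A2003 (0.0501), and with them the return of Kdr with LX-A2003 passed (0.0447), as it did by DESeq2 (0.0263) and in a fit of the compared libraries alone (0.0105). Without a filter on low counts, these 2 calls (0.0608 and 0.0978) and the Pecam1 step with LX-A3928 (0.0851) were lost. In fits of the compared libraries alone, the 72 to 168 h steps of Clec4g (0.217) and Pecam1 (0.0675) with LX-A3928 were lost, and the 24 to 72 h falls of Dnase1l3 and Clec4g passed with LX-A2003 (0.0187 and 0.00261) and LX-A3928 (0.0304 and 0.0436).

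Several of the steps were lost without 1 library. The 24 to 72 h step of Kdr with LX-A2003 was lost in 14 of 16 fits that each left out a library of the groups involved (adjusted p = 0.0555 to 0.139). The steps of Kdr with LX-A1656 (adjusted p = 0.0514 without LX-A1656 replicate 2 at 24 h) and of Stab2 with LX-A2003 (0.0554 without PBS replicate 1 at 72 h, 0.0726 and 0.0555 without its own replicates 3 and 4 at 72 h) were lost without the libraries named. The return of Stab2 with LX-A3928 was lost without replicate 4 at 168 h (0.67 ± 0.27, adjusted p = 0.0643), the highest of that group. The further fall of Clec4g from 72 to 168 h was lost in 11 of 16 such fits with LX-A1656 (adjusted p = 0.0514 to 0.0983) and in 10 of 16 with LX-A3928 (0.0509 to 0.103), and in none with LX-A2003. Among the libraries that stood apart, it was lost without LX-A1656 replicate 4 at 168 h (-0.72 ± 0.32, adjusted p = 0.0858) and LX-A3928 replicate 4 at 72 h (-0.82 ± 0.32, adjusted p = 0.0571), and was at -1.40 ± 0.23 (adjusted p = 6.05e-06) without LX-A3928 replicate 3 at 168 h. The step of Pecam1 with LX-A3928 was lost without replicate 3 at 168 h, which stood apart (0.48 ± 0.19, adjusted p = 0.0562), or replicate 1 at 72 h (0.0605). The return of Kdr with LX-A2003 from 72 to 168 h passed without replicate 4 at 168 h (0.74 ± 0.27, adjusted p = 0.0319).

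The lists that follow were drawn up with earlier results of these data known, so their counts are descriptions. The shares of all genes called are given above, but a list chosen this way can exceed them by its choice alone. Some genes are in more than 1 list, and their calls then count more than once. Other genes of sinusoidal endothelium were taken from a list of 20, of which 19 could be tested. At 24 h, 3 fell with LX-A1656, none with LX-A2003 (3 at an unadjusted p under 0.05, 0 by DESeq2) and 1 rose with LX-A3928. At 72 h, 11, 7 and 7 fell and 0, 1 and 1 rose; at 168 h, 8, 7 and 9 fell and 3, 3 and 4 rose. F8, coagulation factor VIII, fell with LX-A1656 at 24 h, from 17.3 ± 2.16 CPM (SD, n = 4) in PBS to 3.06 ± 0.429 CPM (-2.49 ± 0.38, adjusted p = 1.88e-05). With LX-A2003 and LX-A3928 it was at -0.74 ± 0.34 and -0.70 ± 0.34 at that time, which did not pass (adjusted p = 0.34 and 0.323). At 72 h F8 changed by -4.53 ± 0.45, -1.64 ± 0.36 and -1.96 ± 0.37. Nrp1, the VEGF co-receptor neuropilin-1, was also lower by 24 h with LX-A1656 (-0.89 ± 0.24, adjusted p = 0.027), and by 168 h with all 3 (-2.95 ± 0.26, -2.0 ± 0.25 and -2.05 ± 0.25). Mrc1, the mannose receptor, and Maf, a transcription factor of sinusoidal identity, were not called at 24 h. At 72 h they fell with LX-A1656, at -2.15 ± 0.24 and -1.70 ± 0.19, and neither was called with it at 168 h (0.11 and -0.01). Plpp3, a lipid phosphatase, was at 0.02 ± 0.14 with LX-A1656 at 24 h and fell to -2.79 ± 0.15 at 168 h.

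Pan-endothelial genes, 19 tested, were called in both directions. With LX-A1656 1 rose and 1 fell at 24 h, 4 rose and 7 fell at 72 h, and 6 rose and 7 fell at 168 h. With LX-A2003 and LX-A3928, 1 and 0 rose and 0 and 1 fell at 24 h, 1 rose and 3 fell with each at 72 h, and 7 rose and 4 fell with each at 168 h. Of all genes, 34.1%, 29.8% and 27.3% rose and 29.7%, 25.3% and 20.7% fell at 168 h with the 3 oligonucleotides. Calls in both directions were thus common in any genes at that time and not particular to this list. Ptprb, an endothelial phosphatase that acts on the Tek product, changed by -1.72 ± 0.19 at 72 h with LX-A1656. Tspan7, a membrane tetraspanin, changed by -1.62 ± 0.15 in the same comparison, while Cd34, a sialomucin of capillaries that sinusoids largely lack, rose by 1.96 ± 0.25. At 168 h Cd34 was at 12.9 ± 0.268, 13.1 ± 1.42 and 17 ± 2.24 CPM with the 3 oligonucleotides, in that order, against 1.67 ± 0.764 in PBS (SD, n = 4). Fli1, an ETS factor, rose by 1.61 ± 0.23, 1.23 ± 0.23 and 1.10 ± 0.23 at that time.

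In the VEGF and angiopoietin pathway, the ligand and receptor genes around Kdr and Tek, 16 genes were tested. Of these, Flt1, Flt4 and Nrp1 are also in the sinusoidal list and Ptprb and Nos3 in the pan-endothelial list. At 24 h, 2 fell with LX-A1656 and 2 rose with LX-A3928, and none passed with LX-A2003 (3 at an unadjusted p under 0.05, 0 by DESeq2). At 72 h 8, 5 and 6 fell, and 2, 0 and 1 rose. At 168 h 8, 5 and 5 fell and 2 rose with each. Of all genes, 23.4%, 6.55% and 5.33% fell at 72 h and 29.7%, 25.3% and 20.7% at 168 h. Vegfc, a ligand of VEGF receptors, was among those lower with all 3 at 72 h (-1.61 ± 0.23, -1.25 ± 0.22 and -1.10 ± 0.22), as was Dll4, a Notch ligand of endothelium (-1.93 ± 0.29, -1.44 ± 0.28 and -0.96 ± 0.27). Angpt2, the angiopoietin that can oppose TIE2 signalling, rose with LX-A1656 from 1.17 ± 0.577 to 11.9 ± 3.81 CPM at 72 h (3.30 ± 0.40) and was higher with all 3 at 168 h (3.86 ± 0.40, 2.69 ± 0.40 and 2.28 ± 0.41).

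The BMP and endoglin pathway, 19 genes around Eng, showed 1, 1 and 3 calls at 24 h. At 72 h, 9 rose and 3 fell with LX-A1656, 2 rose with LX-A3928, and none was called with LX-A2003 (2 at an unadjusted p under 0.05, 1 by DESeq2). At 168 h 14, 12 and 11 rose and 1, 1 and 3 fell. Of the 12672 genes tested, 3134, 694 and 566 rose at 72 h, and 34.1%, 29.8% and 27.3% rose at 168 h. Id1, a target of BMP signalling, was at -0.50 ± 0.34 with LX-A1656 at 24 h (adjusted p = 0.624) and rose by 4.39 ± 0.33, 4.23 ± 0.33 and 4.13 ± 0.33 at 168 h. Bmp6, a ligand made by sinusoidal endothelium that controls hepcidin, changed by -1.46 ± 0.24, -1.02 ± 0.24 and -0.79 ± 0.24 at the same time.

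Genes of endothelial activation and capillarization were not called at 24 h and were mostly higher at 168 h. Of 14 tested, none was called at 24 h with any oligonucleotide, with 4, 1 and 1 at an unadjusted p under 0.05 and 0, 0 and 1 by DESeq2. At 72 h 7 rose with LX-A1656, 0 with LX-A2003 and 1 under LX-A3928, and 1 fell with each. At 168 h 12, 11 and 12 rose, and 1, 0 and 0 fell. Among the 12672 genes tested, 3134, 694 and 566 rose at 72 h, and 34.1%, 29.8% and 27.3% rose at 168 h. The changes that follow are those at 168 h. Vcam1, an adhesion molecule for leukocytes, rose by 3.71 ± 0.19, 2.85 ± 0.18 and 2.39 ± 0.18. Plvap, a diaphragm protein of fenestrae and capillaries, rose by 2.40 ± 0.22, 1.73 ± 0.21 and 1.27 ± 0.21. Several genes of this list are expressed by cells other than endothelium as well.

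**Figure D4:**
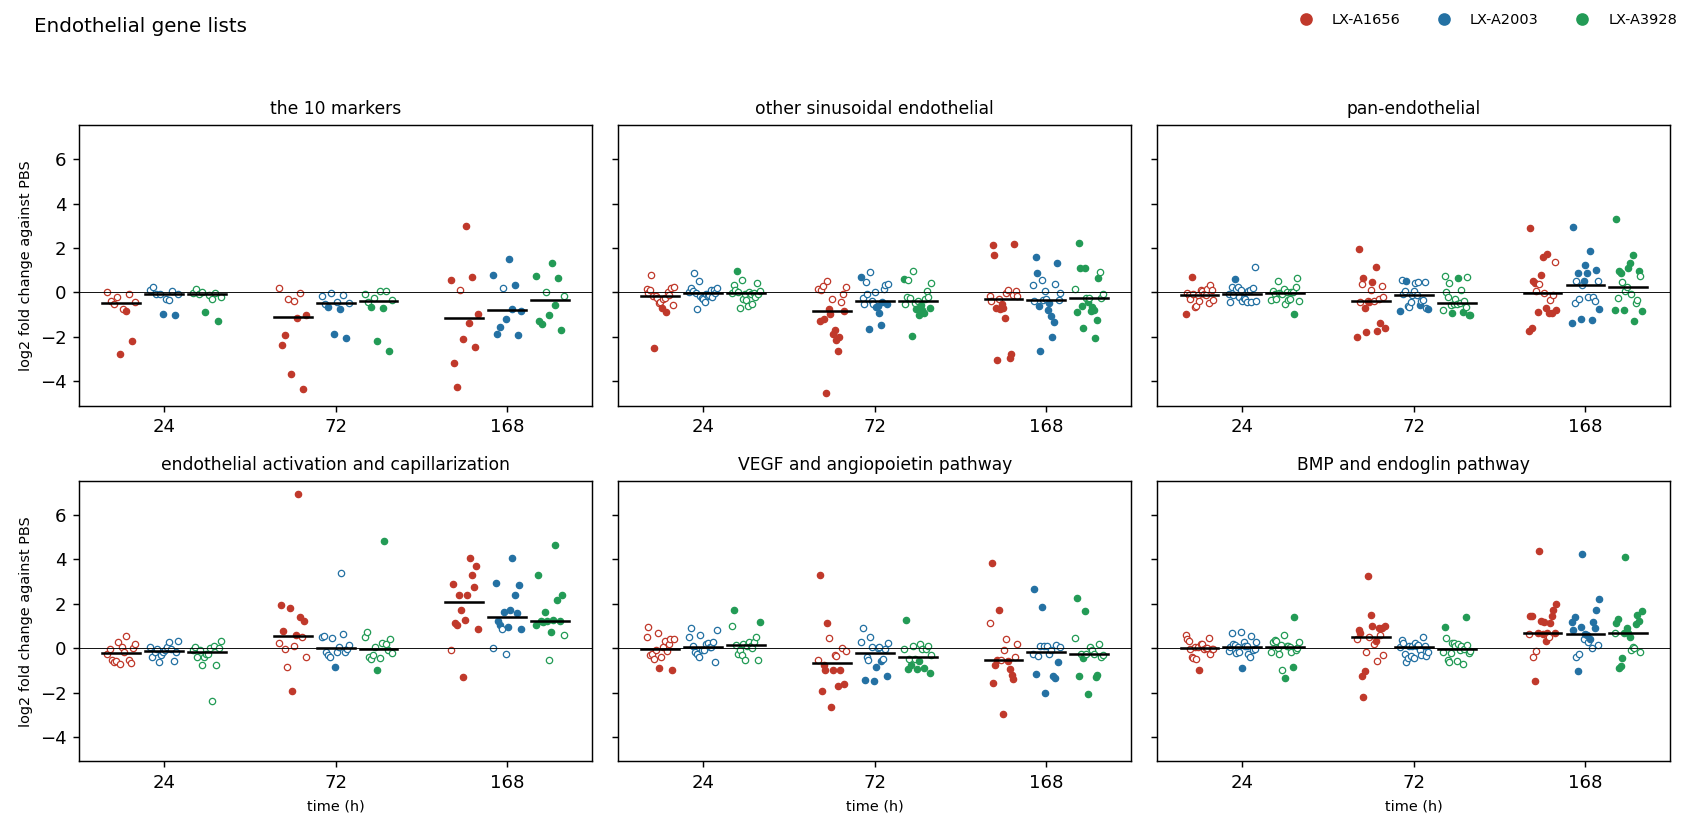
Log2 fold change against PBS (y axis) of every tested gene of 6 lists at 24, 72 and 168 h, coloured by oligonucleotide; filled points passed the test and black bars are list medians. At 24 h few points are filled and most of these lie below 0, and at 168 h the activation and capillarization list lies mainly above 0.

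Markers of other liver cell types moved at the later times, beside the rises of Lyve1, Pecam1 and Cdh5. None of the 11 Kupffer cell, 9 monocyte and recruited macrophage and 12 stellate cell genes tested was called at 24 h with any oligonucleotide. At an unadjusted p under 0.05 there were at most 1, 1 and 2 of them in a comparison, and DESeq2 called 1 stellate cell gene with LX-A3928. Hepatocyte genes (10 tested) gave 0 (1 at an unadjusted p under 0.05, 0 by DESeq2), 2 and 2 calls at 24 h, all lower. The summed levels of these lists with LX-A1656 at 24 h were 299 to 333 CPM for Kupffer cells (282 to 354 in PBS), 158 to 185 for monocytes and recruited macrophages (138 to 173), 686 to 754 for stellate cells (659 to 741) and 78078 to 83735 for hepatocytes (72263 to 82357).

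At 72 h, 7, 1 and 1 of the 9 monocyte and recruited macrophage genes were higher with the 3 oligonucleotides, in that order, and their summed level was 300.4 to 499, 167 to 190.5 and 142 to 219.8 CPM against 142 to 150.3 in PBS. Of the 11 Kupffer cell genes, 2 were higher and 5 lower with LX-A1656, none was called with LX-A2003 (1 at an unadjusted p under 0.05, 0 by DESeq2) and 1 was higher with LX-A3928, with sums of 247 to 278, 325 to 344 and 292 to 418 CPM against 289.8 to 323. Stellate cell genes gave 3 higher and 3 lower with LX-A1656 and 2 lower with each of the others. With LX-A1656 at 72 h, 3134 of the 12672 genes tested were higher and 2968 lower. Stellate cell calls with LX-A1656 were thus about as common as calls in any genes and not particular to this list. With LX-A2003 and LX-A3928, 6.55% and 5.33% of all genes were lower. Hepatocyte genes were lower in 7 of 10 with LX-A1656, summing to 43496 to 65108 CPM against 75857 to 82200.5, and 1 was higher with each of the others.

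By 168 h, 8, 9 and 9 of the 9 monocyte and recruited macrophage genes were higher with the 3 oligonucleotides, in that order. Their summed level was 1069 to 1652, 672 to 922 and 492 to 719 CPM against 146 to 186 in PBS. Spp1, in this list, is also in the cholangiocyte list, so these counts and sums do not report on recruited cells alone. Kupffer cell genes were higher in 8, 7 and 6 of 11 and lower in 1, 0 and 1, with summed levels of 642 to 956, 659.5 to 873 and 534 to 772 CPM against 314 to 373. The Kupffer cell list includes Clec4f, Timd4, Vsig4, Marco and Cd5l beside Adgre1, Csf1r, C1qb and C1qc. Its counts and sums do not separate Kupffer cells from other macrophages. C1qa, in this list, had 0 counts in the PBS group at 168 h and the LX-A2003 groups at 24 and 72 h, and was too low to test. Stellate cell genes were higher in 10, 8 and 7 of 12 and lower in 1, 0 and 0, with summed levels of 1900.0 to 2720.2, 1202 to 1847 and 1005 to 1969 CPM against 671 to 755. Hepatocyte genes were lower in 6, 7 and 7 of 10 and higher in 2, 0 and 0, summing to 42372 to 58347, 35567 to 45288 and 34625 to 97055 CPM against 74835 to 92461. The part of these cell types in the marker values was not tested.

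Lymphatic endothelium also expresses Lyve1. The 4 genes tested from its list were Pdpn, Prox1, Reln and Flt4. Reln is also in the stellate cell list, and Flt4 in the sinusoidal and VEGF lists. The counts and sums therefore do not report on lymphatic endothelium alone. At 168 h, 0, 1 and 0 of the 4 were higher and 2, 1 and 2 lower. The summed level of the list was 175 to 267, 253 to 393 and 153 to 307 CPM against 235 to 378 in PBS. Platelets and megakaryocytes, a further source of Pecam1, had 3, 1 and 1 of 4 genes higher at 168 h, at 24.7 to 53.4, 9.61 to 13.6 and 9.4 to 20.9 CPM against 6.98 to 11.2. Cholangiocyte genes, 5 tested, were higher in 2, 2 and 2 and lower in 1, 0 and 1 at that time. Of all genes, 34.1%, 29.8% and 27.3% were then higher and 29.7%, 25.3% and 20.7% lower. Lists of 4 or 5 genes are too short to be told from these shares. All 10 markers were detected in every library, and in PBS their summed level was 495 to 531, 482 to 560.0 and 557 to 604 CPM at the 3 times.

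**Figure D5:**
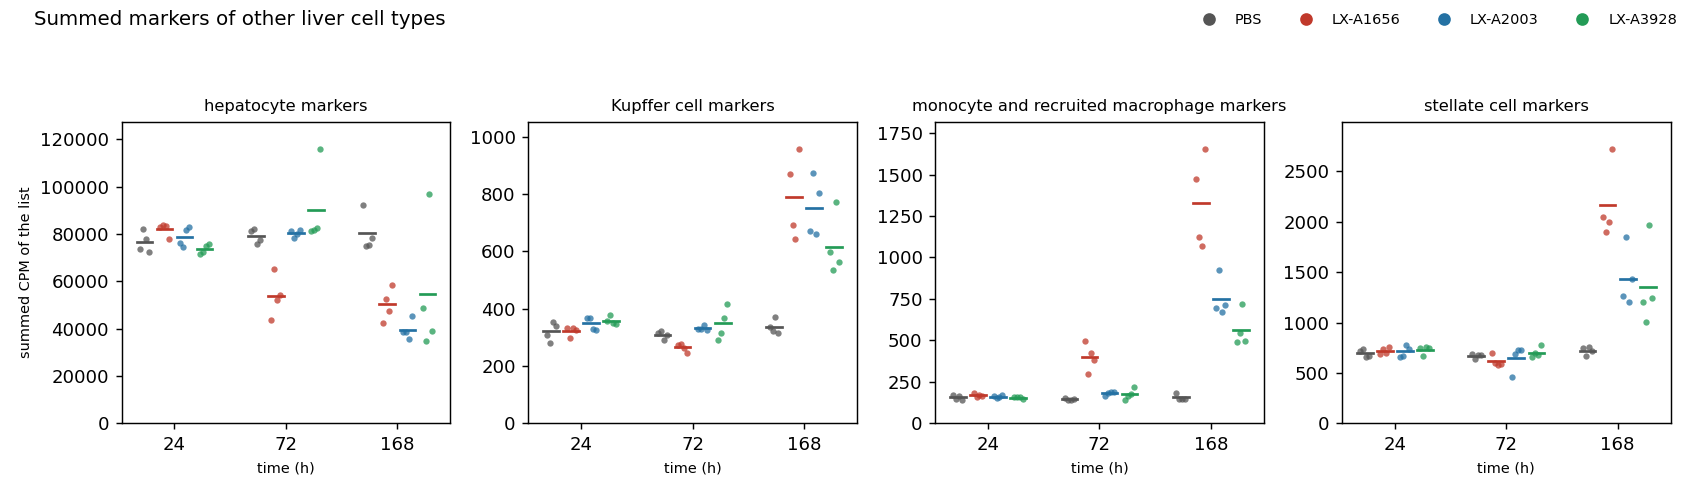
Summed CPM of the marker genes of 4 other liver cell types (y axis from 0, own scale in each panel) in each library at 24, 72 and 168 h; points are libraries and bars means of 4. At 24 h the treated groups overlap PBS in each panel, and at 168 h the monocyte and recruited macrophage sums of treated livers lie between 492.1 and 1652 CPM against 146.2 to 186.4 in PBS.

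Across the means of the 12 groups (log2 CPM), which share PBS controls and one scaling, Kdr and Stab2 had a Pearson r of 0.952 with each other, given as a description. The genes most like Kdr among all genes tested were Stab2, Inpp5a (r = 0.949) and 1810030O07Rik (0.941), and those most like Stab2 were Gpr182 (0.966), Inpp5a (0.964) and Fbxl17 (0.962). Oit3 went with Kdr at 0.931, Dnase1l3 with Clec4g at 0.945 and Clec4g with Tek at 0.900. Lyve1 and Pecam1 had an r of 0.897, and Lyve1 against Kdr had -0.041. Dnase1l3 and Lyve1, which part at 168 h, had -0.788. The single most alike genes of the others were Pgm5 for Oit3 (0.953), Map7 for Dnase1l3 (0.999), Carkd for Clec4g (0.996), Cpne9 for Lyve1 (0.9747), Hpgds for Pecam1 (0.958), Ckap4 for Cdh5 (0.982), Pbx3 for Eng (0.939) and Glmn for Tek (0.971).

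The markers differ in gene length. In GENCODE vM21, Stab2 spans 166.8 kb and Kdr 45.6 kb, where the median of the tested genes was 24.3 kb. Oit3, which fell at 24 h with LX-A1656, spans 18.8 kb. The 7 markers not called at 24 h span 12.6 kb (Lyve1), 13.6 kb (Clec4g), 30.0 kb (Dnase1l3), 36.1 kb (Eng), 42.9 kb (Cdh5), 96.4 kb (Pecam1) and 135.7 kb (Tek). Of these 7, 5 are shorter than Kdr and Stab2. Among tested genes with a known span, 69.8% were shorter than Kdr and 94.1% shorter than Stab2. A shorter span was thus common in any gene and not particular to these markers. The part of length in the order of the falls was not tested.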

How the data were processed

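Liver RNA from 48 libraries was measured with an AmpliSeq transcriptome kit, per the labels. The authors deposited raw counts per gene symbol in 1 table; the sources used here name no aligner, counter, genome build or filter. Counts were normalized by TMM and fitted with edgeR 4.0.16 (R 4.3.3) as 12 group means, with its default filter on low counts, which kept 12672 genes and at least 99.891% of the counts in a library. The quasi-likelihood test was adjusted by Benjamini-Hochberg over these genes, with a threshold of 0.05 and 36 residual degrees of freedom. Library totals were 8140065 to 17191129 counts (median 10659453), and the common biological coefficient of variation was 0.211. Levels relative to Cdh5 were tested with limma 3.58.1. The script was tested on simulated data.

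Comparisons were each oligonucleotide against PBS (9), oligonucleotides with each other (9), changes of the effect between consecutive times (6) and PBS across times (2). Alternatives were DESeq2 size factors, library totals, DESeq2 1.42.0, no filter, a replicate block, only the libraries compared, another reference gene or added constant, and leaving out each library. All 10 genes are named in the text. From other lists, up to 5 genes were named with the smallest p in any comparison with PBS, of which some are described, and for likeness the 3 genes with the highest correlation. The genes and lists were chosen with earlier results of these data known. Where replicates share a number, 11 of 72 same-numbered pairs had a correlation of deviations over 0.1, so numbers were not taken to pair samples. No replicate pair agreed within counting noise. Gene positions are from GENCODE vM21 and promoters from RefSeq (GRCm38.p6), matched by symbol; promoter windows leave out annotated exons.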

Additional observations from a re-analysis of the deposited data

Results flagged for a closer look

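Among 120 groups of 4 values, 1 for each marker and group, 10 held a library that stood far from its 3 fellows, where chance gives about 1 in 20. For Kdr it was LX-A3928 at 24 h replicate 1 (17.2 CPM). For Stab2 these were LX-A1656 at 168 h replicate 4 (6.68 CPM) and LX-A3928 at 168 h replicate 4 (21.3 CPM). For Pecam1 it was LX-A3928 at 168 h replicate 3 (54.9 CPM). Cdh5 had PBS at 24 h replicate 4 (24.7 CPM), LX-A1656 at 24 h replicate 4 (46.9 CPM) and LX-A1656 at 72 h replicate 1 (62.5 CPM). Eng had LX-A3928 at 24 h replicate 3 (126.5 CPM, with the others at 132.7 to 133.7) and LX-A1656 at 72 h replicate 1 (139.6 CPM). Tek had LX-A1656 at 72 h replicate 1 (4.87 CPM). Of the 10, 3 come from that last library, which also stood apart over all genes, as did the LX-A1656 library named for Stab2 and the LX-A3928 library named for Pecam1.

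The effect of an oligonucleotide differed between consecutive times in 25 of 60 tests of markers (log2 change of the difference from PBS, edgeR quasi-likelihood test). With LX-A1656 from 24 to 72 h these were Kdr -0.91, Stab2 -2.15, Dnase1l3 -1.38 and Clec4g -1.98. From 72 to 168 h they were Kdr 1.60, Stab2 1.90, Dnase1l3 -2.34, Lyve1 3.37, Pecam1 0.70 and Clec4g -0.80. With LX-A2003, Kdr -0.90 and Stab2 -1.07 were followed by Dnase1l3 -0.91, Lyve1 1.91, Cdh5 0.96 and Clec4g -1.38. With LX-A3928, Kdr -1.29 and Stab2 -1.37 were followed by Kdr 1.17, Stab2 0.93, Dnase1l3 -0.76, Lyve1 1.28, Pecam1 0.60, Cdh5 0.79 and Clec4g -0.85.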

How the results depend on the processing

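No marker that was called in any of the 26 comparisons or relative to Cdh5 turned its direction under the alternatives run. The counts of markers called against PBS moved by over 1.5 times in 1 case: with only the libraries compared, LX-A1656 at 24 h gave 5. In that setting LX-A2003 and LX-A3928 against LX-A1656 at 24 h gave 4 and 5, and the 24 to 72 h steps of LX-A2003 and LX-A3928 gave 4 and 4. LX-A3928 against LX-A2003 at 168 h gave 0 with library totals, with no filter, with the replicate block and with only the libraries compared. The LX-A2003 step from 24 to 72 h gave 1 with DESeq2 size factors, 0 with library totals, 1 with no filter and 1 with the replicate block. Relative to Cdh5, LX-A3928 at 24 h gave 1 with no filter. Leaving out each of 48 libraries gave 0 to 2 for LX-A3928 against LX-A2003 at 168 h, 0 to 2 for the LX-A2003 step from 24 to 72 h, and, relative to Cdh5, 0 to 2 with LX-A2003 and 1 to 2 with LX-A3928 at 24 h. The cause of these shifts was not tested.

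The replicate block changed 5 single calls of markers, all lost: Pecam1 between LX-A2003 and LX-A1656 at 168 h (adjusted p = 0.0572), Tek between LX-A3928 and LX-A2003 (0.053), the Kdr step with LX-A2003 (0.0616), and, relative to Cdh5, Eng with LX-A1656 (0.0539) and Oit3 with LX-A3928 (0.0511) at 72 h. Correlations of same-numbered libraries ran from -0.66 to 0.44, and 35 of 144 library and group pairs correlated best with their own number. Depth limits the lowest values most: Stab2 with LX-A1656 at 72 h had as few as 18 counts in a library.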
